A study of Mus musculus with 2 samples.

Results

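The cadherins, the catenins and the desmosome genes were read from RNA of mature hepatocytes (MHs) of healthy livers and of Sox9+EpCAM- cells of injured livers. The members are the genes whose name on the array is Cdh, Ctnna, Ctnnb, Ctnnd, Dsg, Dsc or Pkp followed by a number, together with Dsp and Jup, read by spots that are not controls. This gave 44 of 30153 genes, read by 66 probes. They divide into 23 cadherins, 6 catenins, 9 desmosomal cadherins and 6 desmosomal plaque proteins.

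The arrays were run because biphenotypic hepatocytes, which carry hepatocyte and bile duct features, appeared to be a mixed population, and their profile was set against that of MHs to look into this. Livers of Sox9-EGFP mice, in which EGFP reports Sox9, were digested by a 2-step collagenase perfusion. Both samples are labelled male, a label taken up below. MHs came from healthy livers by low-speed and Percoll centrifugation, with no sort, whereas FACS gave the Sox9+EpCAM- cells, as the GFP+EpCAM- fraction from mice fed with DDC, a compound that injures bile ducts. Each group is 1 Cy3 array. The sources used here do not state for the arrays how long DDC was fed, nor the age or the number of the mice. Cell state, diet, isolation method and the expression of sex-linked genes differ together between the arrays and cannot be told apart.

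Adherens junctions and desmosomes hold epithelial cells together. In adherens junctions, classical cadherins of neighbouring cells bind each other outside the cell, and their tails bind beta-catenin or plakoglobin and p120-catenin, while alpha-catenin links the complex to actin. In desmosomes, desmogleins and desmocollins are the adhesive cadherins, and plakoglobin, plakophilins and desmoplakin join them to keratin filaments. Hepatocytes carry both E-cadherin and N-cadherin, keratins 8 and 18, and small desmosomes near the bile canaliculi.

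Each value is a spot intensity with the background subtracted, set on the log2 scale relative to the 75th percentile of its array, which was 741 for MHs and 1110 for Sox9+EpCAM- cells. A difference is the Sox9+EpCAM- value minus the MH value. The 27523 and 32158 spots well above background, of 43020 on each array, set what could be measured, and no spot was saturated. With no replicates no test was made, and the precision is limited by the number of arrays. The error given with a difference is the signal error of the scanner software, near 0.20 on the log2 scale for bright spots. Among 260 probes printed at least 8 times, the difference varied between spots with a median SD of 0.09 (log2). Neither measure covers the variation between mice. Fewer cells of a type and less RNA per cell cannot be told apart in such samples.

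Set beside the labels, 2 readings of the arrays stand out. Both samples are labelled male, yet Xist, the RNA of the inactive X chromosome, read 1940 in MHs but only 16.1, not well above background, in Sox9+EpCAM- cells, whereas the Y-linked Ddx3y, Kdm5d, Eif2s3y and Uty passed background in Sox9+EpCAM- cells alone. The cells were sorted as negative for EpCAM protein on the surface, whereas Epcam RNA was 13.3-fold higher on their array (139 against 2770). By quantitative PCR, the study found no rise of Epcam in such cells, split by the surface protein CD24, when set beside MHs of DDC-injured livers. The hepatocyte markers were well above background on both arrays in 6 of 6 cases, with 0 at least 2-fold higher and 3 at least 2-fold lower, and their summed level went from 853 to 425 times the 75th percentile. Every difference below rests on both arrays, so none can be given without either of them.

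Probes for 6 members around which the results turn are shown first, by the first 30 of their 60 bases, 5′ to 3′. They were chosen because Cdh1 is the E-cadherin gene, Cdh6 and Cdh5 are the cadherins past 4-fold, Ctnnb1 and Jup are alternative partners of a cadherin tail, and Dsp ties desmosomes to keratin. The coordinates are those of the whole probe in the array design, on mm9, where Cdh1 is chr8:109193812-109193871 (+), Cdh6 chr15:12963981-12964040 (-), Cdh5 chr8:106668159-106668218 (+), Ctnnb1 chr9:120869274-120869333 (+), Jup chr11:100238038-100238097 (-) and Dsp chr13:38285480-38286579 (+). The Dsp probe spans 1100 bases of the genome. The probes are annotated to transcripts of these genes, and whether they lie in coding or untranslated parts of an exon was not examined here.
Cdh1: acattctaacgggaaaaaggagacaagacc
Cdh6: attatgactatttgagtgactggggccctc
Cdh5: acttattataagactctagttctcacagac
Ctnnb1: ttctaagaaccgagtaatggtgtagaacac
Jup: ccgggatcccatgaaccgcatggagatctt
Dsp: aatttgagacaggaaattgagaaattccaa

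Another 4 of the 66 probes share a stretch of at least 20 bases with a probe for a different gene, as do 7.19% of 39429 probes on the array. These stretches are shown because the probes are the brightest for their genes and carry the values given below. Capitals mark the bases shared, 21 with 2610005L07Rik in the Cdh11 probe, 21 with BC068157 in Cdh26, 22 with Impg1 in Pkp3 and 23 with Prdm1 in Pkp4. The Cdh26 probe also shares 20 bases with EF410146, in part outside the capitals, and the Pkp3 probe shares a stretch with the probes of 5 other targets, Impg1 included. In Pkp3 the shared bases are a CT repeat, and in Pkp4 a run rich in GTTT. Whether the other transcripts contribute to these 4 signals was not tested.
Cdh11: gaacTGTTTGAAATCACAACAGACTgaaac
Cdh26: ccctTGAACTGTGAGCCAGAATAAAccctt
Pkp3: aggaCCTCTCTCTCTCTCTCTCTCTCctct
Pkp4: aggttTTGGTTTGTTTGTTTGTTTTTTCtt

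Most of the junction genes that were measured differed little between MHs and Sox9+EpCAM- cells, with E-cadherin, Cdh4 and Cdh6 higher and VE-cadherin, plakoglobin and the desmogleins Dsg1b, Dsg1c and Dsg3 lower in Sox9+EpCAM- cells. Of the 44 members, 30 were well above background in both samples, 5 in Sox9+EpCAM- cells alone, 1 in MHs alone and 8 in neither. Of the 36 members measured on 1 or both arrays, 1 was at least 4-fold higher (2.78%) and 2 were at least 4-fold lower (5.56%), beside 5.59% and 5.57% of the 23417 genes measured in all. At 2-fold, 3 members were higher (8.33%) and 5 lower (13.9%), beside 14.2% and 16.7% of all genes. In either direction, 11.2% of all genes passed 4-fold and 30.9% passed 2-fold. These shares are near or below those of all genes.

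Among the 30 members on both arrays, 25 lay within 2-fold (83.3%), beside 70.8% of the 19232 genes on both arrays. Their median difference was -0.06, beside -0.19 for all those genes, with 14 members higher and 16 lower. By family, the median was 0.23 for 12 cadherins, -0.13 for 5 catenins, -0.63 for 8 desmosomal cadherins and 0.22 for 5 plaque proteins. The plot of differences by family shows this spread, with the catenins close together and the desmosomal cadherins reaching furthest down.

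**Figure D1:**
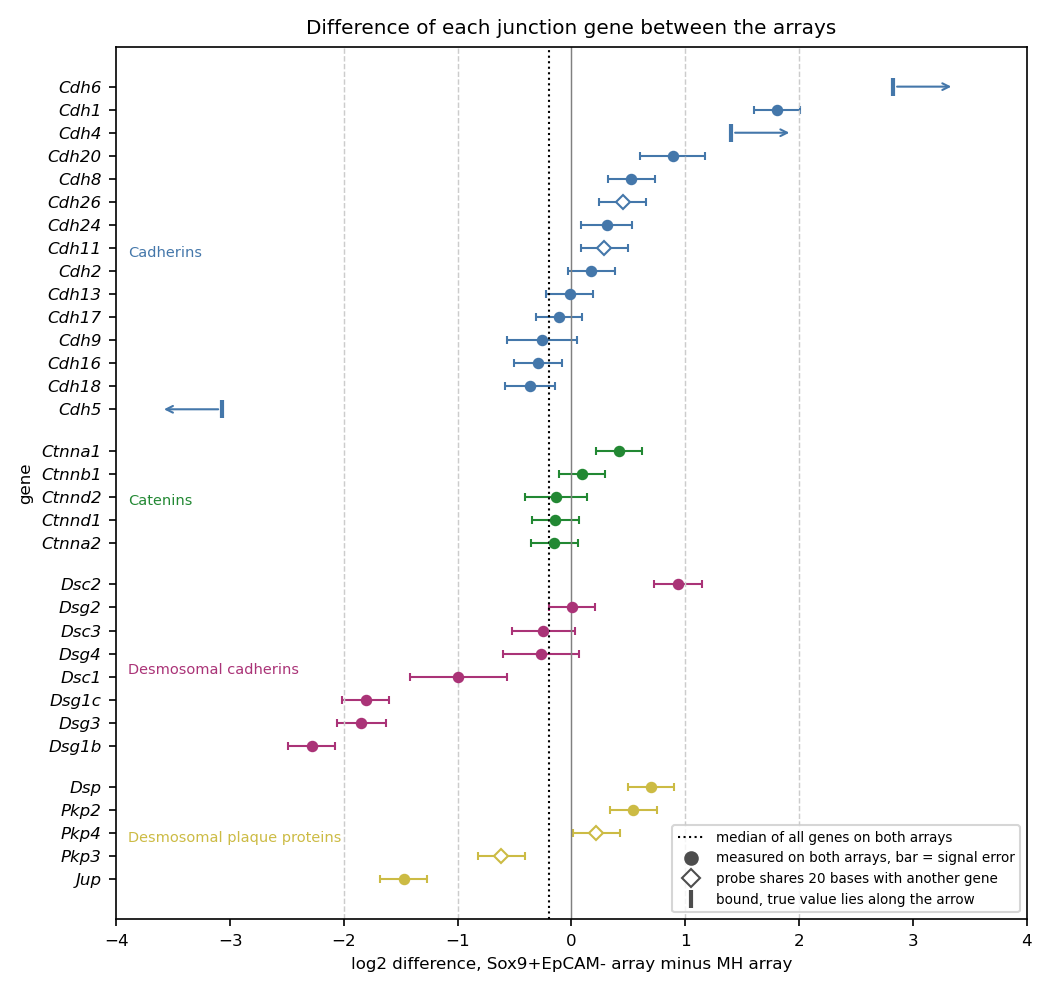
Log2 difference of each member gene (Sox9+EpCAM- array minus MH array, x axis) by family, for 33 genes with a value; circles are genes measured on both arrays with the scanner software's signal error as bars, open diamonds are probes with a stretch of 20 bases also found in another gene's probe, ticks with arrows are bounds, dashed lines mark 2-fold and 4-fold, and the dotted line is the median of all genes (-0.19). The catenins lie between -0.15 and 0.42, while the desmosomal cadherins run from -2.28 (Dsg1b) to 0.94 (Dsc2).

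Cdh1 encodes E-cadherin, the classical cadherin of epithelia. Its probe was printed 10 times, and 9 spots remained after 1 was left out as an outlier. The spots ran from 495 to 569 with a median of 541 on the MH array, and from 2570 to 3130 with a median of 2810 on the Sox9+EpCAM- array. No spot of either array reached the range of the other. After scaling, Cdh1 was 3.50-fold higher in Sox9+EpCAM- cells (log2 difference 1.81, SD 0.09 over 9 spots, single spots from 3.19-fold to 3.83-fold), which is below the 4-fold rule of size.

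**Figure D2:**
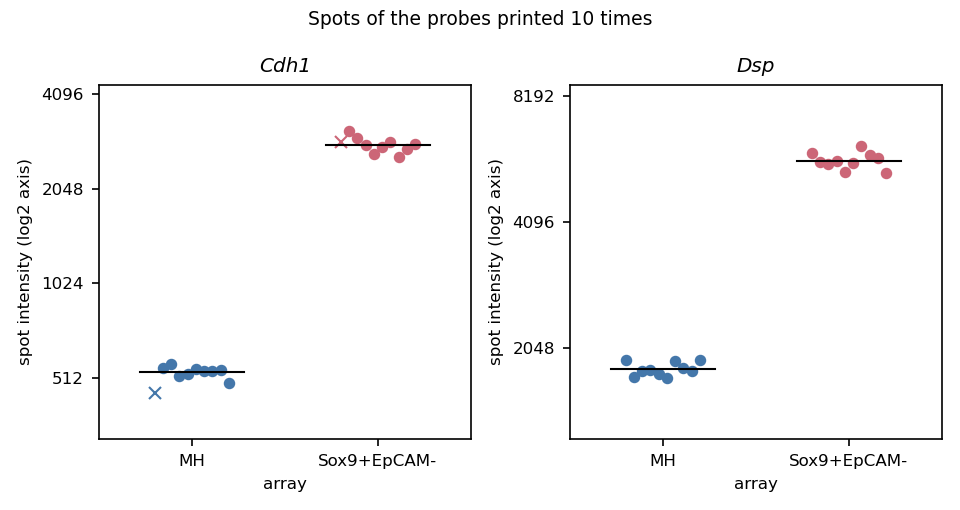
Intensity of each spot (log2 axis, before scaling between arrays) of the probes printed 10 times, for Cdh1 and Dsp on the MH and the Sox9+EpCAM- array; points are spots, lines are their means and crosses are spots at the position left out as an outlier. The MH spots lie between 495 and 569 for Cdh1 and between 1740 and 1920 for Dsp, and all spots of the Sox9+EpCAM- array lie above them.

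Cdh2, which encodes N-cadherin, was read by a pair of probes. The brighter had 546 in MHs and 923 in Sox9+EpCAM- cells (log2 difference 0.17 ± 0.21), and the other had 302 and 402 (-0.17 ± 0.21). The probes differ in sign, and both differences are within their error. The difference of Cdh1 exceeded that of the brighter Cdh2 probe by 1.63 ± 0.29 on the log2 scale, or 3.1-fold.

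Cdh6, a type II cadherin known from the kidney, was the 1 member past 4-fold upwards. Its intensity was 13.6 in MHs, not well above background, and 295 in Sox9+EpCAM- cells. Set against 27.8, the lowest intensity well above background on the MH array, Cdh6 was at least 7.08-fold higher (log2 difference at least 2.82). This bound rests on 1 spot per array. With normexp background correction, which needs no bound, Cdh6 was 2.90-fold higher (1.54), which is under 4-fold and under the value of Cdh1 (1.72) there.

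Cdh4, which encodes R-cadherin, had 5.56 in MHs, not well above background, and 110 in Sox9+EpCAM- cells, which makes it at least 2.64-fold higher, whereas normexp gave a log2 difference of 0.58, which is under 2-fold. Its other 2 probes were not well above background on either array. Thus the Cdh4 difference was seen by 1 probe of 3. Cdh3 (P-cadherin; 6.95 and 39.5) and Cdh15 (M-cadherin; 19.6 and 21.4) passed background on the Sox9+EpCAM- array alone, at levels too low to give a direction.

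Several bile duct markers were higher along with Cdh1 and Cdh6. Of 7 cholangiocyte markers, all measured, 3 were at least 2-fold higher and 1 at least 2-fold lower, beside 14.2% and 16.7% of all genes. The median difference was 2.07 over the 6 on both arrays. The summed level of the 7 went from 1.65 to 49.3 times the 75th percentile. The highest was Spp1 (osteopontin; 258 and 47000), 122-fold higher, which made up most of that sum in Sox9+EpCAM- cells. Cldn4 was 16.0-fold higher. The ductal keratins differed less, with 0.42 for Krt19 and -0.23 for Krt7, and the chloride channel gene Cftr had -1.0. All 7 passed background in Sox9+EpCAM- cells, and in MHs all but Sox9 did. Their part in the Cdh1 and Cdh6 differences was not tested.

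Fibroblast and stellate markers also differed. Of 11, in Sox9+EpCAM- cells 6 were at least 2-fold higher and 1 at least 2-fold lower, beside 14.2% and 16.7% of all genes. Their summed level went from 12.8 to 55.2 times the 75th percentile. Col3a1 was 85.1-fold higher, Pdgfrb was not well above background on either array, and Lrat was not above it on the Sox9+EpCAM- array. Cdh11, the cadherin known from mesenchymal cells, had 449 and 822 by its brighter probe (0.29 ± 0.21). This probe shares bases with another probe, and its coordinates in the array design span only 33 bases. The other Cdh11 probe had 6.02 and 22.4, too low for a direction. The part of fibroblast RNA in the cadherin values was not tested.

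Cdh5 encodes VE-cadherin, the cadherin of endothelial cells. It had 103 in MHs and 8.90, not well above background, in Sox9+EpCAM- cells. Set against 18.4, the lowest intensity well above background there, Cdh5 was lower by at least 8.39-fold (log2 difference at most -3.07), whereas normexp gave -1.67, which is under 4-fold. It was the only member measured on the MH array alone.

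Endothelial markers were lower too. Of 10, 9 were measured, all lower on the Sox9+EpCAM- array, with a median of -1.99. Of the 9, 6 were lower by at least 2-fold and 4 by at least 4-fold, beside 16.7% and 5.57% of all genes. Their summed level went from 9.48 to 3.26 times the 75th percentile. Clec4g, Tek and Stab2 were 11.7-fold, 8.20-fold and 8.09-fold lower, while Pecam1 (-0.75), Vwf (-0.27, and -1.80 by its other probe) and Emcn (-0.05) were within 2-fold by their brightest probes and Lyve1 was not well above background on either array. The part of endothelial RNA in the Cdh5 difference was not tested.

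**Figure D3:**
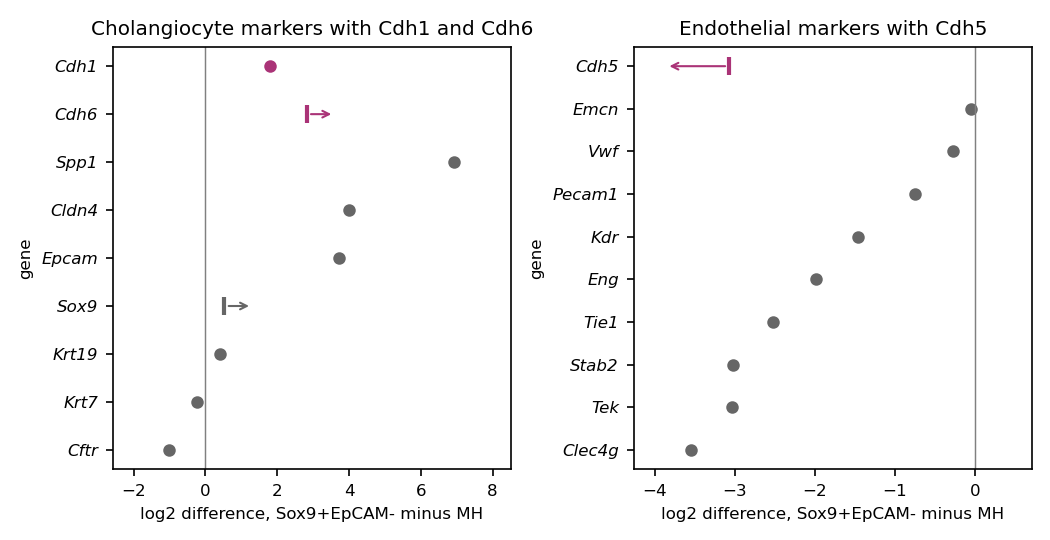
Log2 difference (Sox9+EpCAM- array minus MH array, x axis) of the cholangiocyte markers beside Cdh1 and Cdh6, and of the endothelial markers beside Cdh5; points are genes measured on both arrays, ticks with arrows are bounds, and coloured symbols are the cadherins. Cdh1 (1.81) lies among the cholangiocyte markers, which run from -1.0 (Cftr) to 6.93 (Spp1), and the Cdh5 bound of -3.07 lies in the lower part of the endothelial markers, which run from -3.55 (Clec4g) to -0.05 (Emcn).

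The other cadherins on both arrays were all within 2-fold. Cdh20 had 47.6 and 132 (0.89 ± 0.29) and Cdh8 had 293 and 632 (0.53 ± 0.21), the latter by 1 of 3 probes, since the other 2 were not well above background on either array. Cdh26 had 425 and 869 (0.45 ± 0.21), on a probe with a shared stretch, and Cdh24 had 117 and 217 (0.31 ± 0.22). These 4 were nominally higher in Sox9+EpCAM- cells by more than their signal error, but with normexp Cdh20 had 0.22 and Cdh24 had 0.02.

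Cdh13, which encodes the GPI-anchored T-cadherin, gave -0.01 ± 0.21 (375 and 556) and 0.14 ± 0.21 (172 and 283) with its 2 probes. The difference of Cdh13 was thus within the error of both probes. Cdh17, the liver-intestine cadherin, had 549 and 762 (-0.11 ± 0.20) by its brighter probe, and its other probe was not well above background on either array. Cdh16, a kidney cadherin, had 185 and 226 (-0.29 ± 0.21).

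Cdh18 and Cdh9, type II cadherins described mainly in the nervous system, had 147 and 171 (-0.36 ± 0.22) and 57.8 and 72.4 (-0.26 ± 0.30). The difference of Cdh9 was within its error, and that of Cdh18 was not. Cdh7, Cdh10, Cdh12, Cdh19, Cdh22 and Cdh23 were not well above background on either array, so they have no difference.

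The plot of levels shows all 36 measured members. Intensities of different probes are not compared here, since probes differ in how strongly they bind.

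**Figure D4:**
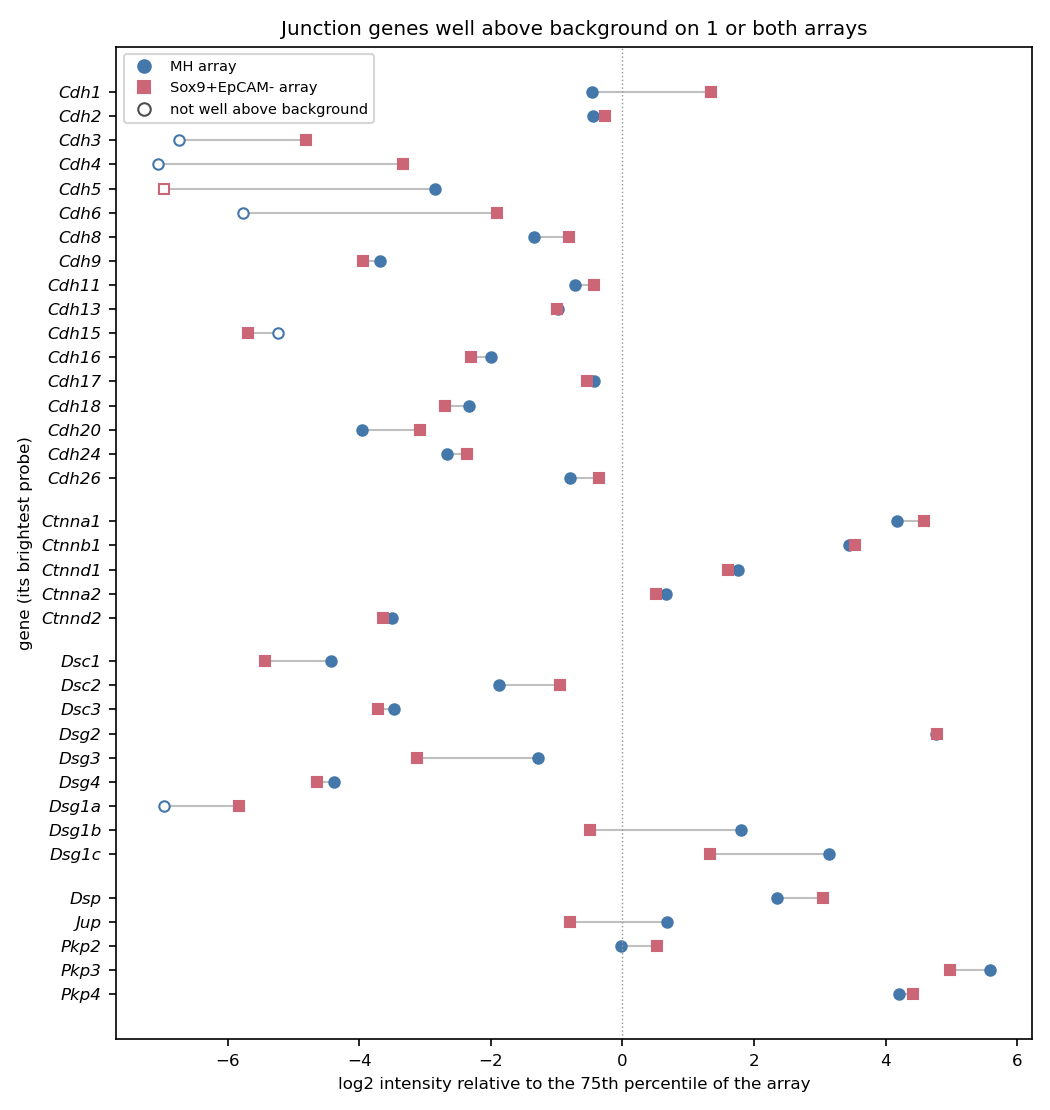
Log2 intensity of the brightest probe of each member relative to the 75th percentile of its array (x axis), for the 36 members well above background on 1 or both arrays, in the order cadherins, catenins, desmosomal cadherins and plaque proteins; circles are the MH array, squares the Sox9+EpCAM- array, and open symbols are not well above background. The widest gaps between filled symbols are at Dsg1b, Dsg3, Dsg1c, Cdh1 and Jup, while Dsg2 and Cdh13 nearly coincide.

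By their brightest probes, the 5 catenins measured were within 2-fold. Ctnnb1 encodes beta-catenin, which binds the cadherin tail and acts in Wnt signalling. It had 8070 in MHs and 12900 in Sox9+EpCAM- cells, and the log2 difference was 0.09 ± 0.20. Ctnna1, the alpha-catenin of epithelia, had 13300 and 26600 (0.42 ± 0.20, 1.34-fold). The beta-catenin difference was within its signal error, and the alpha-catenin difference was not. The Cdh1 difference exceeded that of Ctnnb1 by 1.71 ± 0.29 (log2).

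Ctnnd1 encodes p120-catenin, which holds cadherins at the cell surface. Its 3 probes disagreed. The brightest had 2490 and 3380 (-0.14 ± 0.20), another had 162 and 136 (-0.84 ± 0.22), and the last had 103 and 379 (1.30 ± 0.22). The probes differed in sign, and the gap between the last pair was 4.38-fold, so the direction of Ctnnd1 depends on the probe.

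The catenins known mainly from neurons and heart were also read. Ctnna2 had 1170 and 1580 (-0.15 ± 0.20), with -0.31 ± 0.25 by its other probe. Ctnnd2 had 65.6 and 89.5 (-0.13 ± 0.27), with 0.04 ± 0.33 by its other probe. Ctnna3 was not well above background on either array. Of these, the second Ctnna2 probe alone exceeded its error.

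**Figure D5:**
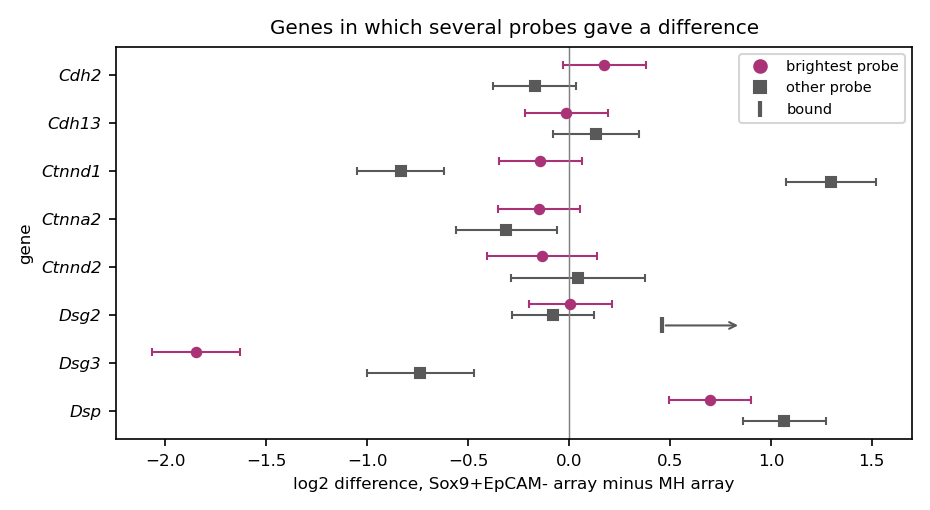
Log2 difference (Sox9+EpCAM- array minus MH array, x axis) of every probe that gave a difference, for the 8 genes with at least 2 such probes; circles are the brightest probe, squares the others, bars the signal error and the tick with an arrow a bound. Among probes measured on both arrays, those of 6 of 8 genes lie within 2-fold of each other and Ctnnd1 has the widest gap (-0.84 to 1.30), while the last Dsg2 probe gives only a bound.

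Among the desmosomal cadherins, Dsg1b, Dsg1c and Dsg3 were lower in Sox9+EpCAM- cells and Dsg2 differed little. Of the 9 genes, 8 were measured on both arrays, with 0 at least 2-fold higher and 3 at least 2-fold lower (33.3% of the 9), beside 14.2% and 16.7% of all genes. All 9 lie within 639 kb of chromosome 18. Their order there is Dsc3, Dsc2, Dsc1, Dsg1c, Dsg1a, Dsg1b, Dsg4, Dsg3 and Dsg2.

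Dsg2 and Dsc2 encode the desmoglein and the desmocollin of simple epithelia. Dsg2 had 20200 in MHs and 30400 in Sox9+EpCAM- cells (0.01 ± 0.20). A further Dsg2 probe agreed within its error, with 16300 and 23100 (-0.08 ± 0.20). The last had 6.28, not well above background, and 57.2, at least 1.37-fold higher. Dsc2 had 201 and 576 (0.94 ± 0.21), or 1.91-fold higher, just inside the 2-fold limit. The Dsc2 difference exceeded the Dsg2 difference by 0.93 ± 0.29 (log2).

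Desmogleins 1 and 3 are known from stratified epithelia, and Dsg1b, Dsg1c and Dsg3 were lower. Dsg1b had 2570 in MHs and 791 in Sox9+EpCAM- cells, which is 4.87-fold lower (-2.28 ± 0.20), the largest difference of a member measured on both arrays. Dsg1c had 6550 and 2800, or 3.50-fold lower (-1.81 ± 0.20). Both were dimmer in Sox9+EpCAM- cells before scaling too. The third mouse desmoglein 1 gene, Dsg1a, had 5.93, not well above background, and 19.5, too low for a direction. As the 3 genes are close copies, their probes were compared, and the longest run of bases shared between a pair was 7 of 60. The probes were not compared with the transcripts of the other copies, so whether a probe also reads another copy was not tested.

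Dsg3 had 305 and 127 by its brightest probe (-1.85 ± 0.22, 3.6-fold lower) and 64.9 and 58.3 by a dimmer one (-0.74 ± 0.26). The last Dsg3 probe was not well above background on either array. The 2 measured probes had the same sign but were 2.16-fold apart. Dsg2 differed from Dsg1b by 2.29 ± 0.29 and from Dsg1c by 1.82 ± 0.29 (log2).

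The remaining desmosomal cadherins were dim. Dsc1 had 34.3 and 25.8 (-0.99 ± 0.42, 1.99-fold lower), Dsc3 had 66.9 and 84.5 (-0.25 ± 0.28), and Dsg4, the desmoglein of the hair follicle, had 35.7 and 44.3 (-0.27 ± 0.33). The differences of Dsc3 and Dsg4 were within their errors.

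Among the plaque proteins, plakoglobin was lower and desmoplakin higher. Jup encodes plakoglobin, the catenin found in both desmosomes and adherens junctions. It had 1190 in MHs and 641 in Sox9+EpCAM- cells, or 2.78-fold lower (-1.48 ± 0.20). Its difference lay 1.57 ± 0.29 below that of Ctnnb1 (2.97-fold) and 3.28 ± 0.29 below that of Cdh1 (9.72-fold). Jup was read by 1 probe on 1 spot per array.

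Dsp encodes desmoplakin, which binds keratin filaments. Its brighter probe had 3790 and 9210 (0.70 ± 0.20, 1.62-fold higher). A further probe, printed 10 times, ran from 1740 to 1920 with a median of 1815 on the MH array and from 5360 to 6230 with a median of 5710 on the Sox9+EpCAM- array. The spots of the arrays did not overlap, and the difference was 1.07 (SD 0.07 over 10 spots), or 2.09-fold. Both probes were higher in Sox9+EpCAM- cells, 1 on each side of the 2-fold limit.

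Of the plakophilins, Pkp2 had 733 and 1600 (0.54 ± 0.20). Pkp4, which is also found at adherens junctions, had 13600 and 23700 (0.22 ± 0.20), and Pkp3 had 35700 and 34900 (-0.62 ± 0.20), the latter pair on probes with shared stretches. All 3 were within 2-fold, and Pkp1 was not well above background on either array.

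The partners of these junctions were counted in lists. Of 7 cytolinkers and desmosome partners, all measured, 2 were at least 2-fold higher and 1 lower, beside 14.2% and 16.7% of all genes. Their median was -0.02. The keratins were the higher ones. Krt8 had 12400 and 83100, or 4.47-fold higher, and 42.8-fold by a dimmer probe, and Krt18 had 34700 and 115000 (2.21-fold). Dst, which encodes the cytolinker dystonin, was 2.64-fold lower by its brightest probe (3210 and 1820), but higher by its other 2, with 80.2 and 487 (4.05-fold) and with 25.3, not well above background, and 528 (at least 12.7-fold). The direction of Dst thus depends on the probe, while Ppl (periplakin; -0.42) and Perp (-0.27), a desmosomal membrane protein, were within 2-fold.

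Of 15 nectins and adherens junction partners, all measured, 4 were at least 2-fold higher and 3 lower, beside 14.2% and 16.7% of all genes. The median was 0.45, beside -0.19 for all genes on both arrays. These counts use the brightest probe, and probes can differ in sign, as in Ctnnal1 (1.48 and -3.24). Vcl encodes vinculin, which binds alpha-catenin under tension, and had 2710 and 14500 (3.57-fold higher), with 5.0-fold by its other probe. Iqgap1, a scaffold that binds cadherin complexes and actin, had 74.2 and 539 (4.85-fold higher). Both sit on the actin side of the junction.

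Probes of the nectins Pvrl2 and Pvrl3 gave different sizes. Pvrl2, which encodes nectin-2, had 340 and 3480 (6.83-fold higher) by the brighter probe and 369 and 421 (-0.39) by the other. Pvrl3, nectin-3, had 8090 and 5490 by its brightest probe (-1.14), and -3.04 and -3.82 by another 2. All measured Pvrl3 probes were lower in Sox9+EpCAM- cells, whereas those of Pvrl2 differed in sign.

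Of 24 other genes of the cadherin superfamily, 17 were measured. Of the 17, 4 were at least 2-fold higher and 7 at least 2-fold lower, beside 14.2% and 16.7% of all genes. Of the 7, 3 were at least 4-fold lower, beside 5.57% of all genes. The median was -0.36, beside -0.19 for all genes on both arrays. The 3 were the protocadherins Pcdh20 (345 and 41.7, 12.4-fold lower) and Pcdh9 (219 and 29.0, 11.3-fold lower), and Fat4, an atypical cadherin of planar polarity (156 and 4.63, not well above background, at least 12.7-fold lower). Pcdh9 was measured by 1 of its 3 probes, since the others were not well above background on either array. Fat1 was 3.73-fold higher.

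Of 8 repressors of cadherin genes, 6 were measured, with 2 at least 2-fold higher and 1 lower, beside 14.2% and 16.7% of all genes. Snai2 (Slug), a repressor of Cdh1, had 41.2 and 257 (4.16-fold higher), and Twist2 had 160 and 35.6 (6.73-fold lower). Zeb1 differed by 0.16, and neither Snai1 nor Twist1 was well above background on either array. The other repressor counted as higher was Snai3 (93.2 and 287, 2.06-fold). Snai2 and Cdh1 were both higher in Sox9+EpCAM- cells, and a link between them was not tested. In MHs, Snai2 was near the lowest level measured there (27.8).

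Of 7 genes of cadherin cleavage and turnover, all measured, 2 were at least 2-fold higher and 1 lower, beside 14.2% and 16.7% of all genes. Mmp7, a secreted protease that can shed E-cadherin, had 9.80, not well above background, and 303, at least 7.28-fold higher. Adam10, the main E-cadherin sheddase, had 1030 and 1080 (-0.51), within 2-fold, and Psen2, a subunit of gamma-secretase, was 3.62-fold lower.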

How the data were processed

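Both arrays are Agilent mouse designs with 60-base probes, on 1 slide. The authors deposited, per spot, the intensity from Feature Extraction 10.7.3.1 with background subtracted and no normalization between arrays, and a table of ratio values, each the intensity over its array's median. Labelling was done by a service provider. Coordinates are on mm9.

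Control spots and outliers on either array were left out, log2 intensities were set to each array's 75th percentile, and spots of a probe were averaged (39390 probes). Each gene was represented by the probe whose mean over the arrays was highest. Where 1 array gave no signal well above background, the difference was given as a bound against the lowest signal that was. Size was judged at 4-fold. All members are named, and partner genes only where at least 4-fold different or where a result turns on them. Other partner genes and the cell type markers given as examples were picked after their values were seen. Members and lists were chosen with earlier results of these data known. All 44 names are RefSeq symbols (GRCm38.p6). The alternatives are given with their effect below, with limma 3.58.1 (R 4.3.3) for normexp, offset 50. Python 3.11.15, pandas 2.3.3 and numpy 2.4.6 were used.

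Leukocyte markers (summed level 27.6 to 3.40 times the 75th percentile, 1 of 8 at least 2-fold higher and 6 lower), erythroid markers (2 of 4 measured, both lower) and mesothelial markers (2 of 4 measured, both lower) were also read. Of all genes, 14.2% were at least 2-fold higher and 16.7% at least 2-fold lower. A further cholangiocyte marker on the list is not reported here and is in none of the counts.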

Additional observations from a re-analysis of the deposited data

How the results depend on the processing

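With 1 higher and 2 lower members at 4-fold, the median scaling, quantile normalization, the median of all probes, the probe with the largest difference, keeping outlier spots, and leaving out probes that share 20 bases (chosen after seeing the data) gave 1 and 2. With normexp the counts were 0 higher and 1 lower, and with genes on both arrays alone they were 0 and 1. Scaling to Gapdh gave 2 higher and 2 lower, plain differences without the bound 2 and 2, and the deposited values 1 and 3. At 2-fold they were 3 and 5, and at 10-fold 0 and 0. The median of the members ranged from -0.24 (deposited values) to 0.20 (Gapdh), so its sign depends on the scaling. Gapdh moved the median of all genes by 0.27, the deposited values by -0.18 and the median of all probes by 0.10. Of 356 gene differences under the alternatives, 8 moved by more than 1.5-fold and 0 called ones changed sign. They were Cdh4, Cdh5 and Cdh6, whose bounds became 0.58, -1.67 and 1.54 with normexp and 3.72, -4.12 and 3.86 without the bound, Cdh20 (0.22 with normexp) and Ctnnd1 (1.30 by the probe with the largest difference). Without the bound, the change is the bound itself. Of the other moves, the cause was not tested, and normexp changes the background correction and adds an offset together. All genes at least 4-fold higher and lower were 1309 and 1304, against 621 and 660 with normexp, 1650 and 1006 with Gapdh and 1130 and 1563 with the deposited values. Signal over background limits the dim genes, since no level under 27.8 in MHs and 18.4 in Sox9+EpCAM- cells was measured.

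No paired analysis was possible because MHs and Sox9+EpCAM- cells have 1 array each. For that reason leaving out a replicate and fitting the slide, which both arrays share, as a block were not run.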
